A study of Mus musculus with 12 samples.

Results

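The genes described here are the ligands of the epidermal growth factor (EGF) receptor and the 4 receptors of its family, chosen by symbol from the 23183 genes listed for each library. The 6 ligands are Egf, Tgfa, Hbegf, Areg, Ereg and Btc, the receptors are Egfr, Erbb2, Erbb3 and Erbb4, and all 10 were found in all 12 libraries. RNA was sequenced from the kidney cortex of male C57BL/6N mice that were 6 to 7 weeks old at surgery, taken on day 7 after unilateral ureteral obstruction (UUO), a model in which tying off a ureter blocks the outflow of 1 kidney. The contralateral kidney (CL), whose ureter was not tied, was the control, so the control kidneys came from operated mice and no kidney of an unoperated mouse was compared. The labels do not say which CL and UUO libraries came from the same mouse. Mice were wild type (Acot12+/+) or carried a germline RGEN-induced mutant allele in every tissue (Acot12-/-). Acot12 encodes an acyl-CoA thioesterase of the kidney tubule. This gave 4 groups of 3 libraries: Acot12+/+ CL, Acot12+/+ UUO, Acot12-/- CL and Acot12-/- UUO. The question asked of these genes was which ligands were present in the obstructed kidney, where Egf was low.

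Ligands of this family are made as precursors in the cell membrane and are released by metalloproteases such as ADAM17 and ADAM10. They bind EGFR, and HB-EGF, betacellulin and epiregulin also bind ERBB4, while ERBB3 and ERBB4 bind neuregulins. Bound receptors pair with each other. ERBB2 has no known ligand of its own and is the preferred partner of the others, and ERBB3 has little kinase activity. In the kidney, Egf is made mainly by the thick ascending limb and the distal convoluted tubule and is released into the urine. EGF also helps to regulate the magnesium channel TRPM6.

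In GRCm38 (GENCODE vM21), Egf lies on the minus strand of chromosome 3 (129677565 to 129755316). Ereg (91074622 to 91093646) and Areg (91139599 to 91148432) lie on the plus strand of chromosome 5 and are separated by 45953 bases. Btc (91357261 to 91402994, minus strand) starts 208829 bases beyond the end of Areg. Epgn, the gene of the related ligand epigen, ends 39407 bases before Ereg. Ereg, Areg and Btc are therefore neighbours, and they differed in direction, as given below. The 250 bases before the annotated start are shown for the ligand that fell furthest and the ligand that rose furthest, from the RefSeq promoter table (GRCm38.p6), in which 7 of the 10 members had an entry. Altogether 3 motifs were searched on both strands of these windows, which were TGACGTCA (the full cyclic AMP response element), TGANTCA (AP-1) and TATAAA. Capitals mark the bases of a match.
Areg (chr5:91139349-91139598, plus strand): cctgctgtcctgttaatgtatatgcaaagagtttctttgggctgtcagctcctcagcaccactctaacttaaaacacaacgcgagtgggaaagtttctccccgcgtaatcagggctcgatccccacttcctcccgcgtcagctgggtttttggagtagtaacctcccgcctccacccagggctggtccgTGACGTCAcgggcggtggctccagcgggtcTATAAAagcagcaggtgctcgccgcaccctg
Egf (chr3:129755323-129755572, minus strand): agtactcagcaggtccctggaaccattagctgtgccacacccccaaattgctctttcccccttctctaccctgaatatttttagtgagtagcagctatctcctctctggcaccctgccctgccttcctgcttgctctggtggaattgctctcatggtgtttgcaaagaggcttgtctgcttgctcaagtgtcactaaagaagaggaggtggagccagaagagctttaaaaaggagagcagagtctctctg
The Areg window held TGACGTCA beginning 61 bases before the start and TATAAA beginning 31 bases before it, and the Egf window held none of the 3 motifs. Of 32851 promoter windows of the same length, 1.55% held TGACGTCA, 6.75% TGANTCA and 12.4% TATAAA. The TGACGTCA and TATAAA matches do not overlap each other, and neither is evidence of binding in these kidneys.

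The values are FPKM (fragments counted per kilobase, relative to the depth of the library), which are scaled for gene length, so that levels of different genes can be set side by side. Total FPKM was 491078 to 686425 in UUO and 799670 to 977981 in CL libraries, so that comparisons between kidneys depend on the scaling, as given below. The divisor that turned fragments into FPKM was read from the steps in low values, relative to the first Acot12+/+ CL library. It was 0.923 to 1.21 times as large in the other CL libraries and 1.38 to 1.70 times as large in the UUO libraries. This divisor can hold a scaling factor besides the number of fragments sequenced, so it is not a measure of sequencing depth alone. The targeted gene, Acot12, was at 73.8, 52.7 and 78.1 FPKM in Acot12+/+ CL and at 9.15, 9.01 and 6.80 FPKM in Acot12-/- CL, and at 9.98, 16.7 and 21.2 against 3.28, 1.80 and 3.86 FPKM in the UUO kidneys. A remaining Acot12 transcript was therefore measured in all libraries of Acot12-/- mice, at lower levels than in the matching wild-type group without overlap. Of the tubule markers, Umod, the main urinary protein of the thick ascending limb, was at 907 to 1985 FPKM in CL kidneys. A single library stood apart. Acot12-/- CL replicate 2 had a mean correlation of 0.946 with the other libraries of its group, against 0.963 to 0.988 in the other 11 libraries, and results that rest on it are given with and without it.

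Calls were made where the p-value, adjusted by Benjamini and Hochberg's method, was under 0.05 in a limma fit of log2(FPKM + 1) over the 13243 genes that passed a filter of at least 1 FPKM in at least 3 libraries. Of the members, 8 passed and Ereg and Erbb4 did not. In Acot12+/+ mice, UUO against CL called 5 of these 8 members, 3 higher (Areg, Tgfa, Erbb2) and 2 lower (Egf, Btc), where 47.5% of all genes tested were called (23.6% higher and 23.9% lower). In Acot12-/- mice it called 5 as well, 3 higher (Areg, Hbegf, Erbb2) and 2 lower (Egf, Btc), against 53.7% of all genes (26.6% higher and 27.2% lower). Over both genotypes 6 members were called, 4 higher and 2 lower, against 63.4% of all genes (31.3% higher and 32.1% lower). With 8 members tested, these counts are near the background. The median log2 difference of the 8 members was 0.26, and that of all genes was 0.00. UUO groups without any overlap with CL were found for 71.3% of all genes in Acot12+/+ mice (35.5% higher, 35.8% lower), for 55.4% in Acot12-/- mice (27.8% higher, 27.6% lower) and for 43.4% over both genotypes (21.5% higher, 22% lower). The balance of calls depended on the scaling: with all libraries set to equal total FPKM, the median of all genes moved by 0.55 over both genotypes and 8183 genes were called higher and 1626 lower, in place of 4148 and 4252. Egf stayed lower and Areg, Hbegf, Tgfa and Erbb2 higher under that scaling, whereas Btc was not called (adjusted p = 0.0975) and Egfr was called higher (0.62, adjusted p = 0.00318), close to the shift of all genes.

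**Figure D1:**
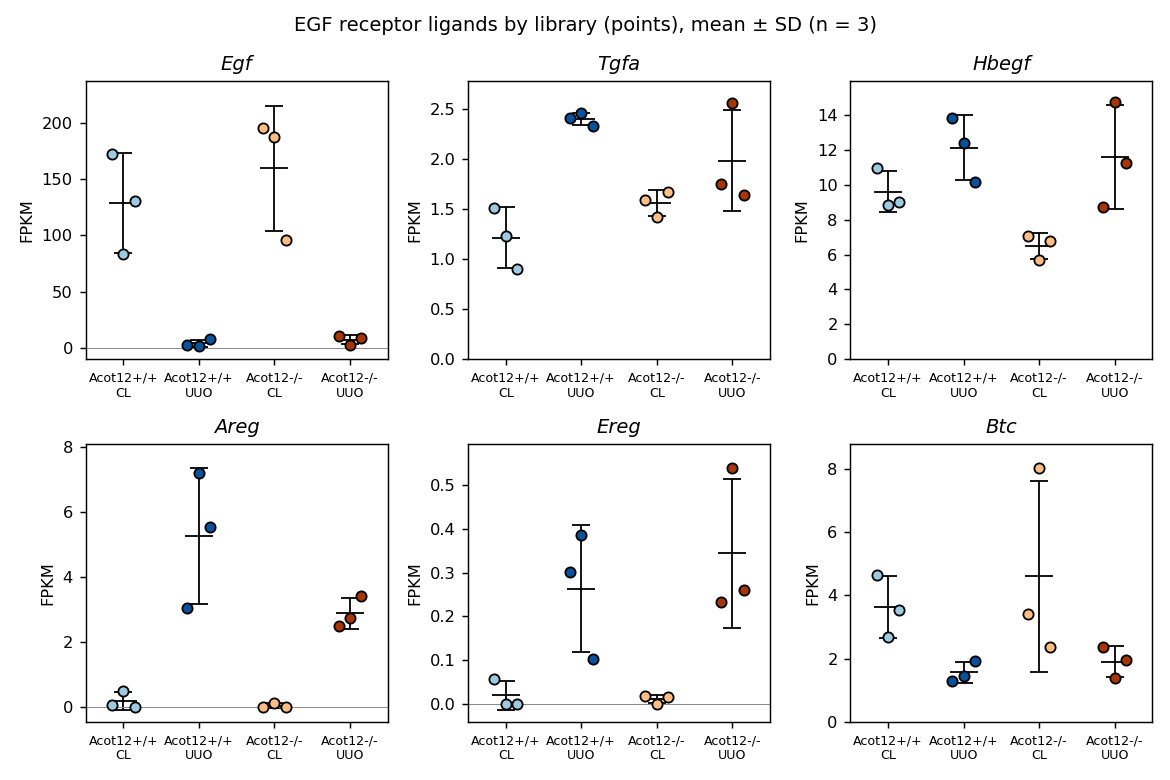
Levels of the 6 ligands in FPKM (vertical axes, linear and with a different scale in each panel) in the 4 groups, with a point for each library and a bar for the mean ± SD of 3 libraries. Egf is at 83.6 to 195 FPKM in CL and at 1.85 to 10.2 FPKM in UUO kidneys, whereas Areg and Ereg are near 0 in CL kidneys and higher in all UUO kidneys.

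Egf, the founding ligand of the family, fell furthest. It was at 173, 83.6 and 130 FPKM in Acot12+/+ CL and at 195, 188 and 95.4 FPKM in Acot12-/- CL. In the UUO kidneys it was at 2.24, 1.85 and 7.63 FPKM in Acot12+/+ and at 10.2, 2.52 and 8.73 FPKM in Acot12-/- mice. No UUO library reached the lowest CL library in either genotype, and it was lower in the UUO kidney of all 6 same-numbered pairs. On the log2(FPKM + 1) scale the difference was -4.85 (SE 0.51, adjusted p = 2.63e-05) in Acot12+/+ and -4.40 (SE 0.51, adjusted p = 2.45e-05) in Acot12-/- mice. Over both genotypes it was -4.63 (SE 0.35, adjusted p = 2.37e-07), a 24.7-fold lower level on that scale, and only 2 of the 13243 genes tested had a lower value. The UUO kidneys differed among themselves, with a lowest value of 1.85 and a highest of 10.2 FPKM.

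Egf was compared with 30 marker genes of the thick ascending limb and the distal convoluted tubule, the segments that make it. Over both genotypes 25 of these 30 were called lower, none was called higher and 5 were not called, with a median log2 difference of -1.48. Of all genes tested, 32.1% were called lower and 31.3% higher. Their summed level was 6951 to 12278 FPKM in CL and 2102 to 4419 FPKM in UUO libraries, and no marker of the list was at 0 throughout a group. Only Pvalb (-6.33, SE 0.17, adjusted p = 4.19e-11) and Calb1 (-5.07, SE 0.30, adjusted p = 3.58e-08), calcium-binding proteins of the distal convoluted tubule, had a lower log2 difference than Egf. Pvalb was at 0 to 0.198 FPKM in UUO libraries and passed the filter only through CL libraries. Slc16a7, a monocarboxylate transporter, came next after Egf (-3.29, SE 0.20, adjusted p = 5.13e-08). Umod fell by 1.31 (SE 0.26, adjusted p = 0.000672) and Slc12a3, the thiazide-sensitive cotransporter of the distal convoluted tubule, by 1.76 (SE 0.14, adjusted p = 4.23e-07). Trpm6, the magnesium channel regulated by EGF, was at 1.90 to 5.36 FPKM in CL and 1.97 to 3.62 FPKM in UUO libraries and was not called (-0.28, SE 0.16, adjusted p = 0.134). Fewer cells of these segments and less RNA per cell cannot be told apart in whole cortex.

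**Figure D2:**
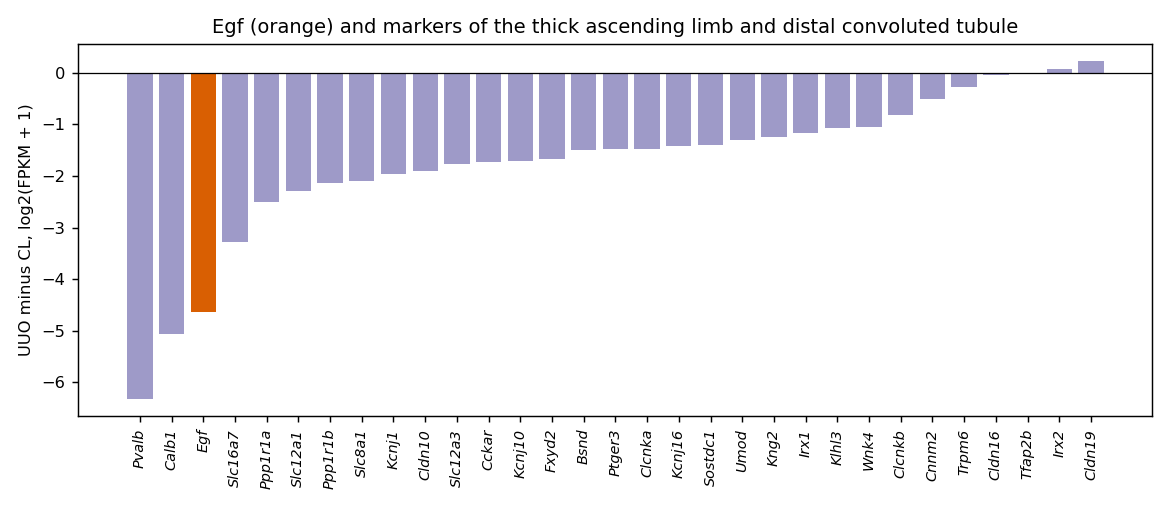
UUO minus CL difference on the log2(FPKM + 1) scale over both genotypes (vertical axis, fitted value of 12 libraries) for Egf, in orange, and the 30 marker genes of the thick ascending limb and distal convoluted tubule, in order. Egf, at -4.63, follows Pvalb and Calb1, while the median of the markers is -1.48.

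Areg, which encodes amphiregulin, was close to absent from CL kidneys and present in all UUO kidneys. It was at 0.077, 0.504 and 0 FPKM in Acot12+/+ CL and at 0, 0.138 and 0 FPKM in Acot12-/- CL. In UUO kidneys it was at 3.04, 7.17 and 5.53 FPKM in Acot12+/+ and at 2.50, 2.75 and 3.41 FPKM in Acot12-/- mice. The lowest UUO library was above the highest CL library. The log2 difference was 2.35 (SE 0.23, adjusted p = 2.05e-05) in Acot12+/+, 1.89 (SE 0.23, adjusted p = 4.12e-05) in Acot12-/- and 2.12 (SE 0.17, adjusted p = 3.98e-07) over both genotypes, where 243 of the 13243 genes tested had a higher value. Areg passed the filter only through its UUO libraries, so its call was favoured by the filter, and values on this scale understate changes of low genes.

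Among low genes the FPKM step by the worth of 1 fragment, so that fragments could be counted for Areg and Ereg. Areg had 1, 6 and 0 fragments in Acot12+/+ CL and 0, 2 and 0 in Acot12-/- CL, against about 67, 147 and 120 in Acot12+/+ UUO and 53, 49 and 69 in Acot12-/- UUO libraries. Summed over libraries and corrected for the divisor of each library, its level was 28.6 times higher in UUO than in CL kidneys of Acot12+/+ mice (95% exact interval 13.7 to 71.8). In Acot12-/- mice the ratio was 63.6 (17.3 to 530), with only 2 fragments in CL kidneys. These intervals cover counting error only and not the spread between mice.

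Ereg, the gene of epiregulin and the neighbour of Areg, had the same pattern at a lower level. It was at 0.057, 0 and 0 FPKM in Acot12+/+ CL and at 0.017, 0 and 0.016 FPKM in Acot12-/- CL, and at 0.301, 0.385 and 0.103 FPKM in Acot12+/+ UUO and 0.233, 0.539 and 0.259 FPKM in Acot12-/- UUO libraries. All UUO libraries were above all CL libraries. In fragments this was 3, 0 and 0 with 1, 0 and 1 in the CL groups, and 27, 32 and 9 with 20, 39 and 21 in the UUO groups. Its level was 13.6 times higher in UUO kidneys of Acot12+/+ mice (95% exact interval 4.46 to 67.6) and 29.8 times higher in those of Acot12-/- mice (7.97 to 250). Ereg entered a test only when no filter on low values was used. There its log2 difference was 0.30 (SE 0.09, adjusted p = 0.0251, limma) in Acot12+/+ and 0.40 (SE 0.09, adjusted p = 0.00486) in Acot12-/- mice, where 35.9% and 41.9% of 19125 genes were called. Over both genotypes it was 0.35 (SE 0.06, adjusted p = 0.000613), where 51.2% were called.

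Hbegf, the gene of heparin-binding EGF-like growth factor, was by group mean the most abundant ligand of the UUO kidney. Egf exceeded it in Acot12-/- UUO replicate 1 (10.2 against 8.76 FPKM). Hbegf was already present in the CL kidney. It was at 10.999, 8.82 and 9.04 FPKM in Acot12+/+ CL and at 13.9, 12.4 and 10.2 FPKM in Acot12+/+ UUO, and the lowest UUO library lay below the highest CL library. Hbegf in Acot12-/- mice was at 7.04, 5.67 and 6.77 FPKM in CL and at 8.76, 14.8 and 11.3 FPKM in UUO kidneys, without overlap. The log2 difference was 0.30 (SE 0.18, adjusted p = 0.197) in Acot12+/+, 0.73 (SE 0.18, adjusted p = 0.00551) in Acot12-/- and 0.51 (SE 0.14, adjusted p = 0.00562) over both genotypes. The difference between the genotypes in this response was 0.42 (SE 0.26, adjusted p = 0.671) and was not called. The Acot12-/- CL libraries were all below the Acot12+/+ CL libraries (-0.50, SE 0.18, adjusted p = 0.170).

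Tgfa, the gene of transforming growth factor alpha, was at 1.51, 1.23 and 0.900 FPKM in Acot12+/+ CL and at 2.41, 2.46 and 2.33 FPKM in Acot12+/+ UUO kidneys. Those groups did not overlap, and the difference was 0.63 (SE 0.15, adjusted p = 0.00390). Tgfa in Acot12-/- mice was at 1.59, 1.42 and 1.67 FPKM in CL and at 1.75, 2.56 and 1.64 FPKM in UUO kidneys, which overlapped, and the difference was 0.21 (SE 0.15, adjusted p = 0.242). Over both genotypes it was 0.42 (SE 0.12, adjusted p = 0.00649). The difference between the genotypes in this response was not called (interaction -0.42, SE 0.21, limma, unadjusted p = 0.0646, adjusted p = 0.524). With 3 libraries in each group this does not show that the genotypes respond alike.

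Btc, the gene of betacellulin, fell. It was at 4.66, 2.69 and 3.52 FPKM in Acot12+/+ CL and at 1.30, 1.46 and 1.93 FPKM in Acot12+/+ UUO kidneys. The Acot12-/- values were 3.41, 8.04 and 2.37 FPKM in CL and 2.35, 1.39 and 1.97 FPKM in UUO kidneys, where the lowest CL library (2.37 FPKM) was barely above the highest UUO library (2.35 FPKM). The log2 difference was -0.84 (SE 0.30, adjusted p = 0.0379) in Acot12+/+ and -0.83 (SE 0.30, adjusted p = 0.0344) in Acot12-/- mice. With the replicate number as a block these became adjusted p = 0.0562 and 0.0526, and the Acot12-/- difference was -0.42 (adjusted p = 0.0993) without CL replicate 2. Over both genotypes the difference was -0.83 (SE 0.21, adjusted p = 0.00294; 0.00622 with the block), and Btc was lower in the UUO kidney of all 6 pairs. Btc and Areg, neighbours on chromosome 5, thus moved in opposite directions.

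**Figure D3:**
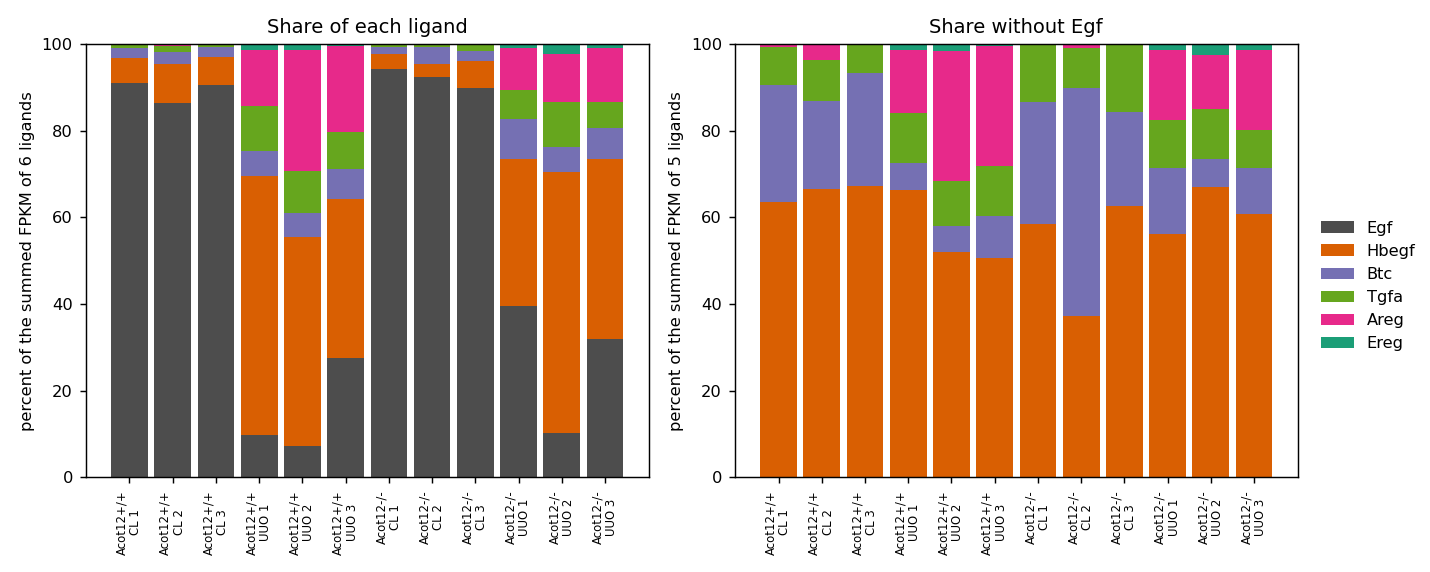
Share of each ligand in the summed FPKM of the 6 ligands (left) and of the 5 ligands other than Egf (right), in percent, with a stacked bar for each of the 12 libraries. Egf takes 86.3% to 94.2% of the sum in CL and 7.18% to 39.5% in UUO libraries, and in the right panel Areg widens and Btc narrows in UUO libraries.

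The summed level of the 6 ligands fell from 158 ± 49.3 FPKM (SD, n = 6) in CL to 25.7 ± 1.69 FPKM in UUO kidneys. Egf made up 90.7% ± 2.66 of this sum in CL and 21.0% ± 13.7 in UUO libraries, a difference of -69.7 percentage points. A two-sided exact permutation test within genotype, which leaves the kidneys unpaired, gave p = 0.005, the smallest that test allows. With the kidneys paired by replicate number, which is an assumption, an exact permutation test (sign flips over 6 pairs) gave p = 0.03125, the smallest possible there. Within each genotype alone the differences were -74.5 points in Acot12+/+ and -64.9 points in Acot12-/- mice, where 3 against 3 libraries cannot give less than p = 0.1 and both gave that value in the exact test. The other 5 ligands together were at 13.7 ± 2.31 FPKM in CL and 20.2 ± 2.87 FPKM in UUO libraries. The gain was 6.47 FPKM (exact permutation test within genotype, p = 0.005). For the paired kidneys, the exact permutation test by sign flips over 6 pairs gave p = 0.03125. With all libraries set to equal total FPKM the gain was 14.9 FPKM (exact permutation test within genotype, p = 0.005). The mean loss of Egf was from 144 to 5.52 FPKM, so that the FPKM gained by the other ligands were a small part of those that Egf lost.

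The make-up of the remaining sum also differed. Hbegf held 59.2% ± 11.3 of the 5 other ligands in CL and 58.8% ± 7.06 in UUO libraries. Areg held 0.859% ± 1.49 in CL and 19.8% ± 7.26 in UUO libraries, with ranges of 0 to 3.81% and 12.5% to 30.0%. Btc held 29.4% ± 11.8 in CL and 8.99% ± 3.55 in UUO libraries, and Tgfa 10.4% ± 3.23 and 10.9% ± 1.12. The CL values of Hbegf and Btc rest in part on Acot12-/- CL replicate 2, in which Btc held 52.6% and Hbegf 37.2%, and without it their CL means were 24.7% ± 3.44 for Btc and 63.7% ± 3.53 for Hbegf (SD, n = 5). By group mean, Hbegf and Tgfa each moved in opposite directions in Acot12+/+ and Acot12-/- mice, which the pooled means hide. Hbegf went from 65.8% to 56.3% in Acot12+/+ and from 52.7% to 61.4% in Acot12-/- mice, and Tgfa from 8.24% to 11.1% and from 12.6% to 10.6%. The rise of Hbegf in Acot12-/- mice rests on CL replicate 2. The other CL libraries there were at 58.4% and 62.5%, and the UUO libraries at 56.2%, 67.1% and 60.8%. These differences within genotype were not tested. Shares of a sum are not independent of each other.

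By mean level, the order in Acot12+/+ CL was Egf, Hbegf, Btc, Tgfa, Areg and Ereg, and only Areg and Ereg overlapped in their libraries. The same order held in Acot12-/- CL, where Hbegf and Btc overlapped as well. In Acot12+/+ UUO it was Hbegf, Areg, Egf, Tgfa, Btc and Ereg, in which Areg and Egf, and Egf and Tgfa, overlapped. In Acot12-/- UUO it was Hbegf, Egf, Areg, Tgfa, Btc and Ereg, and each neighbour overlapped with the next except Btc and Ereg. Hbegf was the first ligand in both UUO groups, clear of the next in Acot12+/+ but not in Acot12-/- mice.

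**Figure D4:**
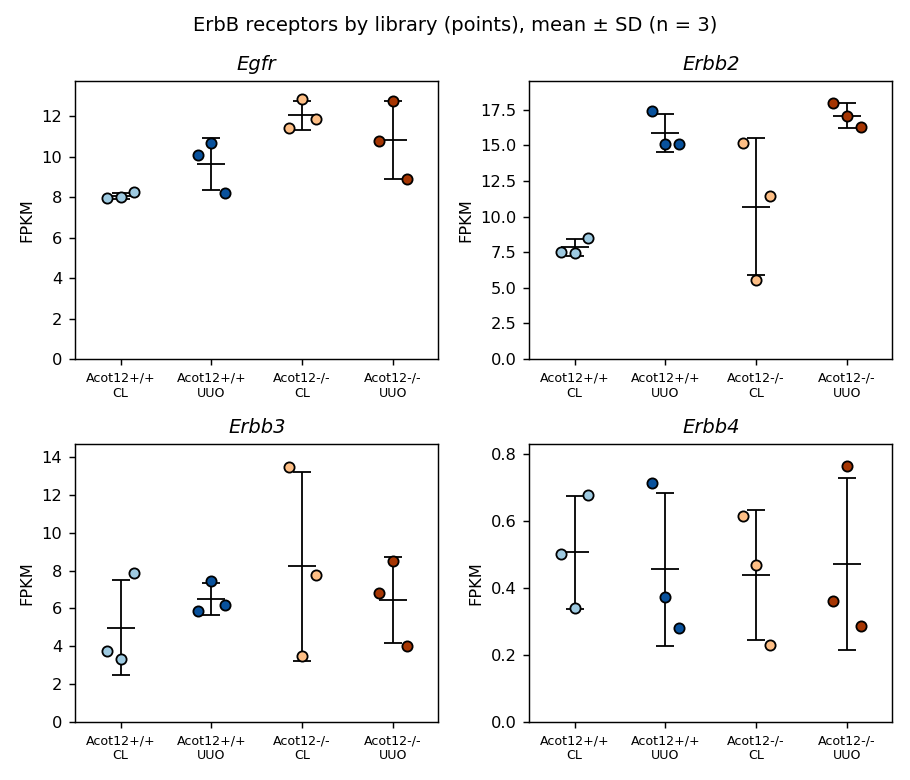
Levels of the 4 receptors in FPKM (vertical axes, linear, a different scale in each panel) in the 4 groups, with a point for each library and a bar for the mean ± SD of 3 libraries. Erbb2 is at 15.1 to 18.0 FPKM in UUO libraries, and in the Acot12-/- CL group Erbb2 and Erbb3 spread widely.

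Among the receptors only Erbb2 was called. Erbb2, the shared partner of the family, was at 7.55, 7.46 and 8.49 FPKM in Acot12+/+ CL and at 17.4, 15.1 and 15.1 FPKM in Acot12+/+ UUO kidneys, without overlap (0.93, SE 0.25, adjusted p = 0.00963). In Acot12-/- mice it was at 15.2, 5.55 and 11.4 FPKM in CL and at 18.0, 17.1 and 16.3 FPKM in UUO kidneys, again without overlap (0.72, SE 0.25, adjusted p = 0.0294). The Acot12-/- CL libraries were widely spread, with the lowest value in replicate 2, without which the difference there was 0.35 (adjusted p = 0.0314). It was not called there without UUO replicate 1, 2 or 3 (adjusted p = 0.0760, 0.0682 and 0.0557) or when only the Acot12-/- libraries entered the fit (adjusted p = 0.104). Over both genotypes the difference was 0.83 (SE 0.17, adjusted p = 0.000979), a 1.77-fold higher level on that scale, and Erbb2 was higher in the UUO kidney of all 6 pairs.

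Egfr, the receptor of all 6 ligands, was not called in either genotype, although in Acot12+/+ mice it was called with equal total FPKM (0.89, adjusted p = 0.00267), where the median of all genes was 0.62. It was at 7.98, 8.01 and 8.26 FPKM in Acot12+/+ CL and at 10.1, 10.7 and 8.21 FPKM in Acot12+/+ UUO kidneys (0.22, SE 0.15, adjusted p = 0.228). Egfr in Acot12-/- mice was at 11.5, 12.9 and 11.9 FPKM in CL and at 10.8, 12.8 and 8.91 FPKM in UUO kidneys (-0.15, SE 0.15, adjusted p = 0.399). Over both genotypes the difference was 0.03 (SE 0.11, adjusted p = 0.808). The values of UUO and CL kidneys overlapped in both genotypes.

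Erbb3, a neuregulin receptor, was at 3.72, 3.34 and 7.86 FPKM in Acot12+/+ CL and at 5.87, 7.47 and 6.19 FPKM in Acot12+/+ UUO kidneys. In Acot12-/- mice it was at 13.5, 3.49 and 7.76 FPKM in CL and at 6.83, 8.52 and 3.98 FPKM in UUO kidneys. It was not called in either genotype (adjusted p = 0.423 and 0.686; 0.0379 in Acot12+/+ with equal total FPKM), and its CL libraries covered the whole range of its UUO libraries. Erbb4 was the lowest receptor, at 0.229 to 0.679 FPKM in CL and 0.279 to 0.764 FPKM in UUO libraries, and was under the filter in all 12. With no filter its log2 difference over both genotypes was -0.01 (SE 0.10, adjusted p = 0.921, limma).

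By mean level, Egfr came before Erbb2, Erbb3 and Erbb4 in both CL groups, with overlap among the first 3. In both UUO groups Erbb2 came first, clear of Egfr, which was clear of Erbb3. Egfr held 39.7% ± 10.1 of the summed receptor FPKM in CL and 30.3% ± 1.77 in UUO libraries (SD, n = 6), a difference of -9.42 points (exact permutation test, p = 0.04). This did not hold with the kidneys paired (sign flips over 6 pairs, p = 0.0625), and without Acot12-/- CL replicate 2, whose Egfr share was 57.5%, the difference was -5.88 points (p = 0.06 in the exact permutation test). Another 4 libraries also ended the call when left out, each at p = 0.055 to 0.06 (Acot12+/+ UUO replicates 1 and 3 and Acot12-/- UUO replicates 1 and 3, exact permutation test).

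**Figure D5:**
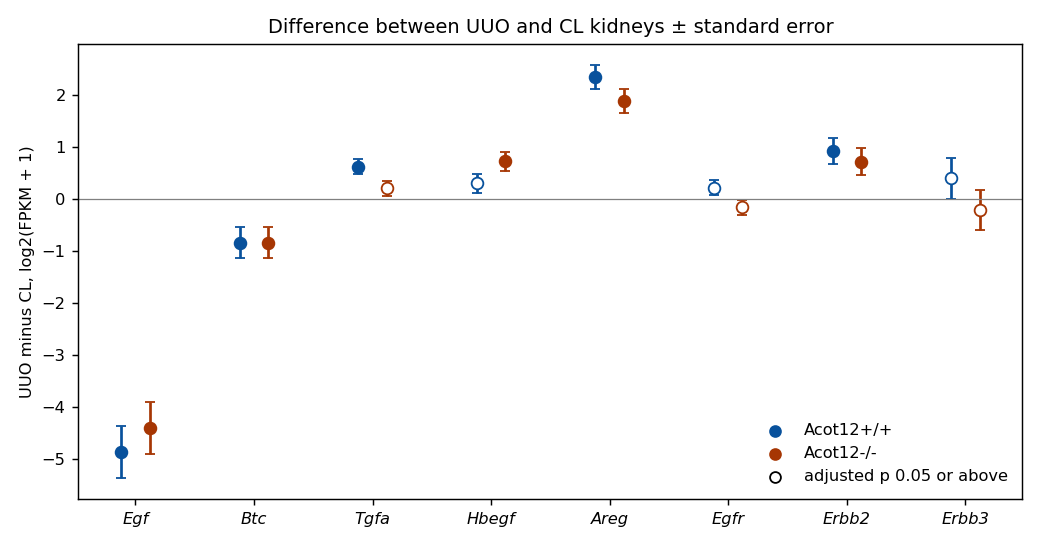
UUO minus CL difference on the log2(FPKM + 1) scale (vertical axis) with its standard error from limma for the 8 members tested, in Acot12+/+ (blue) and Acot12-/- mice (brown), where filled points have an adjusted p under 0.05. Egf is at -4.85 and -4.40 and Areg at 2.35 and 1.89, while the other members lie between -0.84 and 0.93.

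Genotype was compared within each kind of kidney. No member was called between Acot12-/- and Acot12+/+ mice in UUO kidneys (limma, 1 of 8 at an unadjusted p under 0.05), where 0.0151% of all genes were called and 12% did not overlap (5.5% higher, 6.48% lower). In CL kidneys none was called either (2 of 8 at an unadjusted p under 0.05), against 4.48% of all genes (1.12% higher, 3.36% lower), and for the interaction of genotype and UUO none was called (0 of 8), against 0.106%. In UUO kidneys the unadjusted value was that of Areg, at 5.25 ± 2.08 FPKM in Acot12+/+ and 2.88 ± 0.471 FPKM in Acot12-/- mice (SD, n = 3; -0.63, SE 0.23, adjusted p = 1.00). Its groups overlapped. In CL kidneys they were those of Hbegf, given above, and Egfr. All Acot12-/- CL libraries were above all Acot12+/+ CL libraries for Egfr (0.52, SE 0.15, adjusted p = 0.0703), as was found for 8.6% of all genes. Groups entirely lower, as for Hbegf, were found for 9.73%, which gives 18.3% in either direction.

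Without Acot12-/- CL replicate 2, 2 members were called between the genotypes in CL kidneys, Egfr at 0.48 (adjusted p = 0.0375) and Erbb2 at 0.68 (adjusted p = 0.00668), where 22.1% of all genes were called, so that 2 of 8 members is near the background. These calls rest on 2 libraries on the Acot12-/- side. The CL groups also differed in cell markers in the fit of all 12 libraries, where 3.36% of all genes were called lower and 1.12% higher. The summed level of 15 endothelial and podocyte markers was 249 to 314 FPKM in Acot12+/+ CL and 139 to 206 FPKM in Acot12-/- CL, 7 of them were called lower and none higher, and none was at 0 throughout a group. That of 20 macrophage markers was 293 to 318 against 89.96 to 194 FPKM, with 6 called lower. For 20 fibroblast genes the sums were 263 to 357 against 99.6 to 191 FPKM, and 7 of 19 tested were called lower. Of 13 tested genes of lymphocytes, neutrophils and dendritic cells 5 were called lower. In these lists 0 were called higher, and 0 genes of the proximal tubule, collecting duct and injured tubule lists were called. The part of these markers in the Hbegf, Egfr and Erbb2 values was not tested.

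Other ligands of the ErbB receptors were mostly low. Nrg1, the gene of neuregulin 1, which binds ERBB3 and ERBB4, was the only one of 5 to pass the filter. It was at 0.718, 1.12 and 1.26 FPKM in Acot12+/+ CL and 3.57, 5.62 and 4.46 FPKM in Acot12+/+ UUO, and at 1.57, 1.07 and 1.71 FPKM in Acot12-/- CL and 3.60, 4.68 and 4.01 FPKM in Acot12-/- UUO kidneys. All UUO libraries were above all CL libraries (1.25 over both genotypes, SE 0.13, adjusted p = 2.78e-06). Nrg4 was at 0.590 to 1.98 FPKM in CL and 0.447 to 1.03 FPKM in UUO libraries. Nrg2 was at 0 to 0.138 FPKM in CL and 0.036 to 0.244 FPKM in UUO libraries, and Epgn at 0 to 0.220 FPKM with no fragment in any Acot12-/- library. Nrg3 was listed at 0 in all 12 libraries. At a mean of 4.32 FPKM in UUO kidneys, Nrg1 was near the level of Areg, which had a mean of 5.25 FPKM in Acot12+/+ and 2.88 FPKM in Acot12-/- UUO kidneys.

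Genes that release and carry the ligands were measured next. Of 18 listed genes 17 were tested over both genotypes, of which 11 were called higher and 3 lower, with a median log2 difference of 0.51 against 0.00 over all genes. The shares over all genes tested were 31.3% higher and 32.1% lower. Adam8, a metalloprotease of myeloid cells, rose by 2.53 (SE 0.13, adjusted p = 1.21e-08). It was at 0.064 to 0.644 FPKM in CL libraries and, like another gene of the list, passed the filter only through UUO libraries, which favours a call. Rhbdf2, the carrier of ADAM17 to the cell surface, rose from 1.11 to 2.95 FPKM in CL to 6.59 to 11.05 FPKM in UUO libraries (1.71, SE 0.17, adjusted p = 1.57e-06), and Cd9, a tetraspanin that associates with the HB-EGF precursor, rose by 1.51 (SE 0.15, adjusted p = 1.74e-06). The proteases themselves rose less, Adam17 by 0.29 (SE 0.10, adjusted p = 0.0261) and Adam10 by 0.41 (SE 0.15, adjusted p = 0.0256), and for both the UUO and CL libraries overlapped. Timp3, an inhibitor of ADAM17, fell by 1.65 (SE 0.16, adjusted p = 1.37e-06), from a mean of 482 FPKM in CL to 153 FPKM in UUO kidneys. Adam9 fell by 0.74 (SE 0.15, adjusted p = 0.000758) and Cnih1, which takes part in ligand export, by 0.58 (SE 0.13, adjusted p = 0.00129).

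Of 37 adaptors and kinases downstream of the receptors, all were tested, 12 were called higher and 10 lower, which is near the 31.3% and 32.1% of all genes, and the median log2 difference was -0.08. The kinases Src (1.06, SE 0.22, adjusted p = 0.000979), Akt1 (0.92, SE 0.21, adjusted p = 0.00191) and Mapk3 (0.86, SE 0.15, adjusted p = 0.000232) rose. Eps8, an EGFR substrate, fell by 1.12 (SE 0.12, adjusted p = 3.81e-06), and Sos2 and Pik3cb fell by 0.78 and 0.62 (SE 0.13 and 0.10, adjusted p = 0.000171 and 0.000153).

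Of 31 feedback inhibitors and genes of receptor turnover, 15 were called higher and 4 lower, with a median of 0.28, beside 31.3% and 32.1% of all genes. Socs3, which is also induced by cytokine receptors, rose by 3.04 (SE 0.25, adjusted p = 4.73e-07), and Spry1 and Dusp5, inhibitors of the ERK pathway, rose by 1.47 and 1.27 (SE 0.17 and 0.18, adjusted p = 6.47e-06 and 3.10e-05). Dusp5, at 0 to 0.404 FPKM in CL libraries, is among 4 genes of the list that passed the filter only through UUO libraries. Errfi1, which encodes the EGFR inhibitor MIG6, went the other way. It was at 96.2 to 145 FPKM in CL and 63.5 to 107 FPKM in UUO libraries and fell by 0.69 (SE 0.13, adjusted p = 0.000408), with overlap between the kidneys over both genotypes but not within either. Lrig1, which promotes receptor breakdown, was not called (-0.21, SE 0.11, adjusted p = 0.110). Usp8 and Stam, of endosomal receptor sorting, fell by 1.08 and 0.62 (SE 0.15 and 0.12, adjusted p = 3.55e-05 and 0.000641).

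Of 25 transcripts that EGFR and ERK signaling can induce, 20 were tested, and 17 were called higher and 3 lower, with a median of 1.70. Over all genes, 31.3% were called higher and 32.1% lower. Many other receptors induce the same genes, and 4 of the 20 passed the filter only through UUO libraries. Junb rose by 3.07 (SE 0.38, adjusted p = 1.10e-05) and Egr1 by 2.98 (SE 0.22, adjusted p = 2.37e-07). Ccnd1, the gene of cyclin D1, fell by 1.27 (SE 0.10, adjusted p = 4.03e-07) and Vegfa by 0.59 (SE 0.10, adjusted p = 0.000157). The summed level of the list was 274 to 387 FPKM in CL and 493 to 705 FPKM in UUO libraries.

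Cell markers moved with the same comparison, in which 31.3% of all genes tested were called higher and 32.1% lower. All 22 genes of the injured tubule were called higher, with a summed level of 1245 to 5254 FPKM in CL and 16603 to 19872 FPKM in UUO libraries, led by Havcr1, the gene of kidney injury molecule 1 (7.29, SE 0.30, adjusted p = 2.27e-09). Of 20 macrophage genes 19 were called higher and 1 lower, with sums of 89.96 to 318 FPKM in CL and 1065 to 1556 FPKM in UUO libraries. Among fibroblast genes 18 of 19 tested were called higher, with sums of 99.6 to 357 and 754 to 953 FPKM, and of 13 tested genes of lymphocytes, neutrophils and dendritic cells 12 were called higher, with sums of 12.0 to 101 and 85.2 to 195 FPKM. The filter favours higher calls in these lists, since 3 of these 13 genes, 2 of the macrophage genes and 1 of the injured tubule passed it only through UUO libraries. All 19 proximal tubule genes tested were called lower, with a median of -2.31. The summed level of the 20 listed genes, which include a gene that was not tested, varied widely among CL libraries. It overlapped between kidneys, at 11917 to 200788 FPKM in CL and 6655 to 38447 FPKM in UUO libraries, and does not describe the 19 tested genes. Of 19 collecting duct genes 12 were called lower and 2 higher, and the sums also overlapped, at 572 to 826 and 442 to 690 FPKM. No list summed to 0 in any library. The part of these cell types in the levels of Areg, Ereg, Hbegf, Tgfa, Nrg1 and Erbb2 was not tested.

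For each member tested, the 3 genes with the most similar pattern were found as those with the smallest root mean square difference of centred log2(FPKM + 1) over the 12 libraries. For Egf these were Gpx6 (0.37), Calb1 (0.40) and Slc22a22 (0.50), which had means of 52.7, 491 and 91.9 FPKM in CL and 1.87, 15.5 and 5.38 FPKM in UUO kidneys. For Areg they were Vtcn1 (0.24), Lamb3 (0.27) and Lgi2 (0.28), each at a mean under 1 FPKM in CL kidneys and at 5.75, 5.21 and 3.52 FPKM in UUO kidneys. Those of Erbb2 were Zfp703 (0.10), Slc12a9 (0.14) and Cspg4 (0.14), and those of Btc were Ppm1k (0.14), Vma21 (0.16) and Tmed7 (0.18). Hbegf was closest to Camsap1 (0.14), Gpatch4 (0.16) and Fbxl12 (0.18), and Tgfa to Fip1l1 (0.10), Myl12a (0.12) and Sec24b (0.12). Egfr was closest to Lrig3 (0.13), Ddx19a (0.13) and Cobl (0.14), and Erbb3 to Trim7 (0.24), Fmnl1 (0.26) and Zfyve1 (0.27). Genes with small changes, such as Tgfa and Egfr, are close to many genes by this measure.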

How the data were processed

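Kidney cortex RNA of 12 libraries was analysed from the FPKM values that the authors deposited for 23183 gene symbols. Their headers give no unit, which was inferred from how low values step with gene length. Per the study's methods, strand-specific libraries (NEBNext Ultra II Directional) were sequenced, and trimming, mapping and normalization were left to a company. The submitters' processing notes name mm10 and edgeR, and an aligner is not given in the sources used here. FPKM are not counts, so limma 3.58.1 (R 4.3.3) was fitted to log2(FPKM + 1) with 4 group means and a variance trend, on genes with at least 1 FPKM in at least 3 libraries. Before this, 58 genes were left out that were listed at 0 beside at least 10 FPKM in the same group. The comparison of kidneys across genotypes used an additive fit. Shares were tested by exact permutation within genotype (two-sided, 400 arrangements). Sign flips over the 6 pairs had 64 arrangements. Members, lists and tests were chosen with earlier results of these data known. Named genes were the members and, of each list, up to 3 called genes that rose most and 3 that fell most (mean of at least 1 FPKM, no overlap of kidneys), of which the text gives a selection, together with other ErbB ligands, Adam17, Adam10, Rhbdf2, Errfi1, Lrig1, Trpm6, Slc12a3, Umod and Acot12. Some genes are not reported here.

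Residuals of CL and UUO libraries with the same number correlated at 0.134, 0.364 and 0.335 in Acot12+/+ mice. In Acot12-/- mice they correlated at 0.322, 0.186 and 0.318. Libraries with different numbers gave -0.363 to 0.139 in Acot12+/+ and -0.177 to -0.0748 in Acot12-/- mice. Libraries of different genotypes, which cannot share a mouse, reached 0.451, so values of this size do not establish pairing. That the numbers pair the kidneys was therefore an assumption of the paired tests. The labels do not say that a number marks a mouse. Whether the 3 libraries of a group came from separate mice is not stated in the labels, and p-values measure the spread between libraries. Low values of UUO libraries were within 0.1 of a whole fragment for 90.9% to 93.3% of the values checked, with the step set in CL libraries. Fragment ratios used the divisor of each library relative to the first library, read from the steps, and exact binomial intervals from scipy. The code of the fit was checked on simulated data with far fewer changed genes, no genotype effect and no pairing. That check does not bear on the calls made here. Alternatives were another pseudocount, other filters, other scalings, no variance trend, a minimum fold of 2, fits of the compared groups only, the replicate number as a block, and each library left out.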

Additional observations from a re-analysis of the deposited data

How the results depend on the processing

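With a filter of at least 5 FPKM, which fewer members passed, 2, 3 and 3 members were called for UUO against CL in Acot12+/+, in Acot12-/- and over both genotypes (of 5 tested, beside 50.2%, 54.9% and 65.6% of all genes), and with a minimum fold of 2 the counts were 2, 2 and 2 (Egf and Areg, of 8, beside 19.9%, 25.9% and 22.4%). With the compared groups only, 3 were called in Acot12-/- mice (40.3% of all genes). With the replicate number as a block (pairing the kidneys by number) 4 of 8 were called in each genotype, since Btc was lost, and 6 over both. Of all genes, 51% were called there in Acot12+/+, 56.2% in Acot12-/- mice and 64.5% over both, so these counts are near the background. The Egfr share kept its difference of -9.42 points at p = 0.0625 (exact sign flips), and the block changed no other call of a member. Scaling to equal total FPKM moved the median of all genes by 0.62, 0.46 and 0.55 (log2) in the 3 comparisons; there Egfr and Erbb3 in Acot12-/- mice turned to 0.35 and 0.27, both under that shift, Hbegf (0.98, adjusted p = 0.0022), Egfr (0.89, 0.00267) and Erbb3 (1.02, 0.0379) gained calls in Acot12+/+ mice, where 7 of 8 members and 64.4% of all genes were called, Tgfa gained one in Acot12-/- mice (0.56, 0.0163), the gain of the other 5 ligands was 14.9 FPKM, and Btc lost its call, as it did within each genotype with no filter on low values. Leaving out each library gave 4 to 5 members called in Acot12+/+ mice, beside 37.2% to 61.9% of all genes. In Acot12-/- mice it gave 3 to 5 (3 without UUO replicate 2 or 3), beside 44.1% to 63.5%. Over both genotypes 6 were called, beside 59.2% to 68.8%. Between genotypes in CL 0 to 2 were called, beside 1.41% to 22.1% (2 without Acot12-/- CL replicate 2, where 22.1% of all genes were called). For genotype in UUO and the interaction 0 were called, beside 0 to 0.0152% and 0 to 6.8%. The Egf share ranged from -73.4 to -66.9 points, the other 5 ligands from 5.73 to 7.39 FPKM and the Egfr share from -11.7 to -5.88 points. Erbb3 ranged from -0.65 to 0.20 in Acot12-/- mice and from -0.065 to 0.31 over both genotypes, and Egfr over both from -0.017 to 0.11. Btc in Acot12+/+ lost its call without Acot12+/+ CL replicate 1 or 3, any Acot12+/+ UUO replicate or Acot12-/- UUO replicate 3 (adjusted p = 0.0506 to 0.134), and in Acot12-/- without CL replicate 2 or UUO replicate 2 or 3 (0.0675 to 0.120). Egf and Areg kept direction and call in all 3 comparisons under each alternative in which they were tested, with Egf from -5.36 to -3.87 and Areg from 1.79 to 4.52. Areg did not pass the 5 FPKM filter. Depth limits what can be said of Ereg, Erbb4 and Epgn.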
